A study of Mus musculus with 11 samples.

Results

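Transcripts of Pparg and 8 genes of lipid uptake, desaturation, storage and oxidation were measured in vTreg53 regulatory T (Treg) cells taken from visceral adipose tissue (VAT) and from spleen and lymph nodes (Spl/LN). The genes were chosen by name: Pparg, Dgat1, Dgat2, Cd36, Fabp5, Scd1, Scd2, Plin2 and Cpt1a. They and the gene lists below were chosen with earlier results of these data known. Shares over all tested genes are therefore given beside their calls for scale only, and an excess was not tested. All 9 have a row in the deposited table of 52997 genes, and 8 of them were among the 12932 genes tested. Scd1 lay below the filter on low counts, a mean of 10 counts in at least 1 group.

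The vTreg53 T cell receptor (TCR) comes from a single Treg clone of VAT, so the cells model 1 clonotype, carried as a transgene on the C57BL/6 background with a Foxp3-GFP reporter. Sorted transgenic CD45.2+ Treg cells were injected into male CD45.1+ B6 recipients, which 6 weeks later received CFA subcutaneously and, after 1 more week, IFA intraperitoneally. In the adjuvant/Fat1562 groups both injections held Fat1562, a peptide that stimulates this TCR, and in the adjuvant alone groups they did not. The labels call the control samples PBS and unimmunized, whereas the study's methods describe adjuvant without peptide; the name adjuvant alone follows the methods. Clonotype+ CD45.2+ Treg cells were recovered a week after the boost, and 1000 cells went into each Smart-seq2 library, all labelled male, 15 weeks old and transgene positive. There were 3 Spl/LN libraries with adjuvant alone, 3 Spl/LN libraries with adjuvant/Fat1562, 2 VAT libraries with adjuvant alone and 3 VAT libraries with adjuvant/Fat1562. The study calls them biological replicates without saying whether animals were pooled, so the p-values measure the spread between libraries.

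PPARγ is a nuclear receptor that binds DNA as a partner of a retinoid X receptor and is activated by fatty acids and their derivatives. It drives adipocyte differentiation and is also a main regulator of the transcript profile of VAT-Treg cells. Fatty acids that enter a cell through CD36 and are carried by FABP5 can be desaturated by SCD enzymes, esterified to triglyceride by DGAT1 or DGAT2, stored in droplets coated by perilipin 2 (Plin2), or taken into mitochondria by way of CPT1A for oxidation.

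On the GRCm38 build Pparg lies at chr6:115360951-115490399 on the plus strand. Of the other genes, Dgat1 (chr15:76502015-76511953), Dgat2 (chr7:99153658-99182719), Cd36 (chr5:17781690-17888801), Scd1 (chr19:44394455-44407879) and Plin2 (chr4:86648386-86670060) lie on the minus strand, whereas Fabp5 (chr3:10012548-10016607), Scd2 (chr19:44293674-44306864) and Cpt1a (chr19:3322334-3385733) lie on the plus strand. Counts for Fabp5, Scd1, Scd2, Plin2 and Cpt1a are the less certain ones, since 7.97%, 6.65%, 5.60%, 3.71% and 1.83% of their 38-base exonic stretches also occur elsewhere in annotated transcripts, against 0% for Pparg, Dgat1, Dgat2 and Cd36. The 250 bases upstream of annotated RefSeq starts (GRCm38.p6) were at hand for 4 of the 9 genes (Pparg, Cd36, Plin2 and Cpt1a) and not for Dgat1, Dgat2, Fabp5, Scd1 and Scd2. Those of Pparg and of Plin2 and Cpt1a are shown because Pparg and Plin2 rose together in Spl/LN cells after Fat1562, and because Cpt1a and Plin2 followed Pparg most closely of these genes across the libraries. They are written on the strand of the gene, and capitals mark AGGTCA or its reverse complement TGACCT, the half-site bound by many nuclear receptors including PPAR and RXR.
Pparg, start 1, chr6:115360894-115361143, plus strand: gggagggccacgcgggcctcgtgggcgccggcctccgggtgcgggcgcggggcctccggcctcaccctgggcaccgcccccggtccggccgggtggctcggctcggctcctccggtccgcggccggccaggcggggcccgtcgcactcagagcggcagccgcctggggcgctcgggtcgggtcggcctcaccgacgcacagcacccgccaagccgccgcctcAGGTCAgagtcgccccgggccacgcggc
Pparg, start 3, chr6:115421816-115422065, plus strand: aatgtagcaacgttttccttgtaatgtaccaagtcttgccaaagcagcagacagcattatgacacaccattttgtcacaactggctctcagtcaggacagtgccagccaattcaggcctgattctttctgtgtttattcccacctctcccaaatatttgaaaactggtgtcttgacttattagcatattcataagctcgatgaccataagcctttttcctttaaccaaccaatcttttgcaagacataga
Plin2, chr4:86670060-86670309, minus strand: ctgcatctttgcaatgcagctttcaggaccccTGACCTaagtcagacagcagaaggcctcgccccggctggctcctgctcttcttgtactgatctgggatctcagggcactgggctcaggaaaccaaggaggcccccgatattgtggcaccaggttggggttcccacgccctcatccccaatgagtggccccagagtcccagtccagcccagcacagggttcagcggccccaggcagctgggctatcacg
Cpt1a, chr19:3323051-3323300, plus strand: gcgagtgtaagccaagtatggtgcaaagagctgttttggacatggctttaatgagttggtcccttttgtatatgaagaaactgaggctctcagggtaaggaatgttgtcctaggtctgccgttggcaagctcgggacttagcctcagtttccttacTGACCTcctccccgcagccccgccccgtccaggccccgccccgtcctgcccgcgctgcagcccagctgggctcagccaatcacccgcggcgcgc
The window at start 1 of Pparg was rich in G and C (82.4%), unlike that of start 3 (40.8%), whereas those of Plin2 and Cpt1a held 61.6% and 59.6%. The AGGTCA letters stood at bases 28 to 23 before start 1 of Pparg and 9 to 4 before its start 2, whose window is not shown. In reverse orientation they stood at bases 218 to 213 before the Plin2 start and 94 to 89 before the Cpt1a start. Start 3 of Pparg held no match. Searched on both strands, AGGTCA was present in 5 of the 6 windows of these genes (3 windows for Pparg, 1 each for Cd36, Plin2 and Cpt1a) and in 14.0% of 32851 windows of the same length over all genes. Other letters searched alike were CCAAT, in 5 of the 6 and 33.9% of all windows, and GGGCGG, in 4 and 32.7%. TATAAA was in 1 and 12.4%, TCACNCCAC in 0 and 1.05%, and CACGTG in 0 and 6.02%. An excess of any of them was not tested. The repeat typical of PPAR with RXR, AGGTCA followed after 1 base by another AGGTCA, occurred in none of the 6 and in 0.0335% of all windows. With only 11 matches in all windows, its absence from 6 says nothing about these genes. These matches describe letters, not bound sites.

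The libraries held 4490242 to 6570057 counts. Foxp3, the lineage factor of Treg cells, was higher in VAT by 0.40 ± 0.08 on the log2 scale (± SE; edgeR's quasi-likelihood test, adjusted p = 0.00118) with adjuvant alone, and all 6 Treg markers (Foxp3, Il2ra, Ctla4, Ikzf2, Cd4 and Cd3e) were detected in every group. With adjuvant alone Il2ra and Ctla4 were also higher in every VAT library, and Ikzf2 overlapped. Cd4 overlapped too, at 2532 and 2725 normalized counts in VAT against 2114, 2554 and 2519 in Spl/LN. Cd3e was lower in VAT, at 3846 and 4040 against 4364, 4725 and 5067. Summed over 8 adipocyte markers, normalized counts were 84.8 to 98.7 in VAT cells with adjuvant alone and 94.96 to 136 in the matching Spl/LN cells, and Adipoq and Retn were at 0 in the former. Most of that sum was Lipe, the only one of the 8 over the filter. Without Lipe, the sums with adjuvant alone were 6.51 and 21.2 in VAT against 5.79, 5.21 and 15.5 in Spl/LN, and with adjuvant/Fat1562 5.62, 16.3 and 7.29 against 0.953, 4.27 and 6.40, so the ranges overlapped and the VAT means were higher; their part in the results was not tested. Macrophage markers (8 genes) summed to 26.2 to 55.3 in VAT and 41.1 to 118 in Spl/LN with adjuvant alone, with Adgre1 and Fcgr1 at 0 in VAT. Lyz2 made up 70.4 of the 118, in the first Spl/LN library, and had 15.2 and 13.7 in VAT. Cd68 had 23.9 and 6.24 in VAT against 21.2, 8.33 and 4.57 in Spl/LN. C1qa had 6.51 and 6.24 in VAT against 0, 9.37 and 0 in Spl/LN. With adjuvant/Fat1562 the adipocyte sums with Lipe were 79.8 to 94.8 in VAT and 56.3 to 120 in Spl/LN, and the macrophage sums 24.6 to 31.5 and 19.1 to 76.9. The 6 dendritic cell markers summed higher in VAT, 112 to 120 against 73.0 to 108 with adjuvant alone and 121 to 225 against 50.5 to 55.6 with adjuvant/Fat1562. Most of the VAT sums was Xcr1 and Zbtb46. With adjuvant alone Xcr1 had 80.3 and 53.6 in VAT against 2.89, 10.4 and 27.4 in Spl/LN. Zbtb46 overlapped there, at 39.1 and 51.1 against 53.1, 66.7 and 42.9. With adjuvant/Fat1562 both genes were higher in every VAT library than in any Spl/LN library. Flt3, Cd209a and Itgax held at most 3.74 in any VAT library, and Clec9a was at 0 in both VAT groups. The part of these markers in the results was not tested.

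The first comparison asked how the same clonotype differed between VAT and Spl/LN when only adjuvant had been given. Pparg and the genes of triglyceride formation and storage were far higher in VAT. Leaving aside Cd36, which rested on few counts, 6 of 7 tested genes rose and 1, Scd2, fell, where 9.09% of all tested genes were called higher and 7.17% lower at an adjusted p under 0.05. The median log2 fold change of the 7 was 2.61, beside -0.03 over all tested genes.

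Pparg had 413 and 398 normalized counts (counts scaled to a common library size) in the VAT libraries and 20.3, 18.7 and 0.913 in the Spl/LN libraries. The groups were widely separated, and the third Spl/LN library stood apart with 1 raw count, against 21 and 18 in the others. The fitted log2 fold change was 4.95 ± 0.41 (SE; edgeR's quasi-likelihood test, adjusted p = 1.09e-07). The mean of the normalized counts in Spl/LN was 3.28% of that in VAT. In bulk libraries, fewer cells with the transcript and less transcript per cell cannot be told apart, which holds for every gene below.

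Both acyltransferases that complete triglyceride were higher in VAT. Dgat1, whose enzyme esterifies mainly fatty acids from outside the cell, had 5510 and 4872 normalized counts in VAT and 249, 251 and 296 in Spl/LN. The groups lay far apart and the spread within each was narrow, giving a log2 fold change of 4.29 ± 0.13 (adjusted p = 9.05e-13, edgeR). Dgat2, which encodes the structurally unrelated enzyme of the same step, had 877 and 2152 in VAT and 258.5, 258.3 and 224 in Spl/LN. The VAT libraries differed from each other by more than for any other gene here with over 100 counts in VAT, but both were above all Spl/LN libraries (log2 fold change 2.61 ± 0.26, adjusted p = 1.04e-06, edgeR). The log2 fold change was 1.82 without the second VAT library and 3.12 without the first, and called in both.

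Plin2, the droplet coat protein found in most cell types, had 3178 and 2857 normalized counts in VAT and 240.2, 240.6 and 199 in Spl/LN. That was a log2 fold change of 3.74 ± 0.17 (adjusted p = 8.16e-11, edgeR) with no overlap of the groups. Cpt1a, the mitochondrial gatekeeper of fatty acid oxidation, had 1287 and 1115 in VAT and 585, 705 and 479 in Spl/LN, a log2 fold change of 1.03 ± 0.15 (adjusted p = 0.000102, edgeR). The gap between tissues was smaller than for Pparg and the storage genes, Spl/LN cells holding 49.1% of the VAT level.

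The uptake genes were less clear. Fabp5, a fatty acid carrier of the cytosol, had 307 and 372 normalized counts in VAT and 258, 156 and 106 in Spl/LN. The groups did not overlap, yet the highest Spl/LN library came close to the lower VAT library, and the log2 fold change was 0.97 ± 0.26 (adjusted p = 0.0173, edgeR). Without the second Spl/LN or the second VAT library this call was lost. Cd36, the scavenger receptor that takes up long-chain fatty acids, had raw counts of 4 and 17 in VAT and 0 in all 3 Spl/LN libraries, at least 4.38-fold higher against a floor of 3 counts per library. It passed the filter on low counts only through this VAT group, where it is high, so its call (adjusted p = 0.0246, edgeR) is given as a description. It was lost without the first or second Spl/LN library and under quantile normalization, and without the second VAT library Cd36 fell below the filter. In the second VAT library the adipocyte markers without Lipe summed to 21.2 normalized counts, against 6.51 in the first. Fabp4 made up 15.0 and 4.34 of these sums. Cfd, Lep and Plin1 had 3.74, 1.25 and 1.25 in the second library and 0 in the first. Cidec had 0 in the second and 2.17 in the first, and Adipoq and Retn were at 0 in both. The endothelial markers summed to 247 against 317, of which Pecam1 made up 234 and 293. Pecam1 had 510, 461 and 500 in Spl/LN with adjuvant alone. The part of these markers in the Cd36 counts was not tested.

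The desaturases did not follow the storage genes. Scd2 had 66.2 and 33.7 normalized counts in VAT and 172, 125 and 142 in Spl/LN, so both VAT libraries lay below every Spl/LN library. It fell by 1.54 ± 0.32 on the log2 scale (adjusted p = 0.00282, edgeR), a call that was lost without the second VAT library (adjusted p = 0.0632). Scd1, its close paralog and the main desaturase of adipocytes, had 0 to 6 raw counts in any of the 11 libraries and was not tested.

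**Figure D1:**
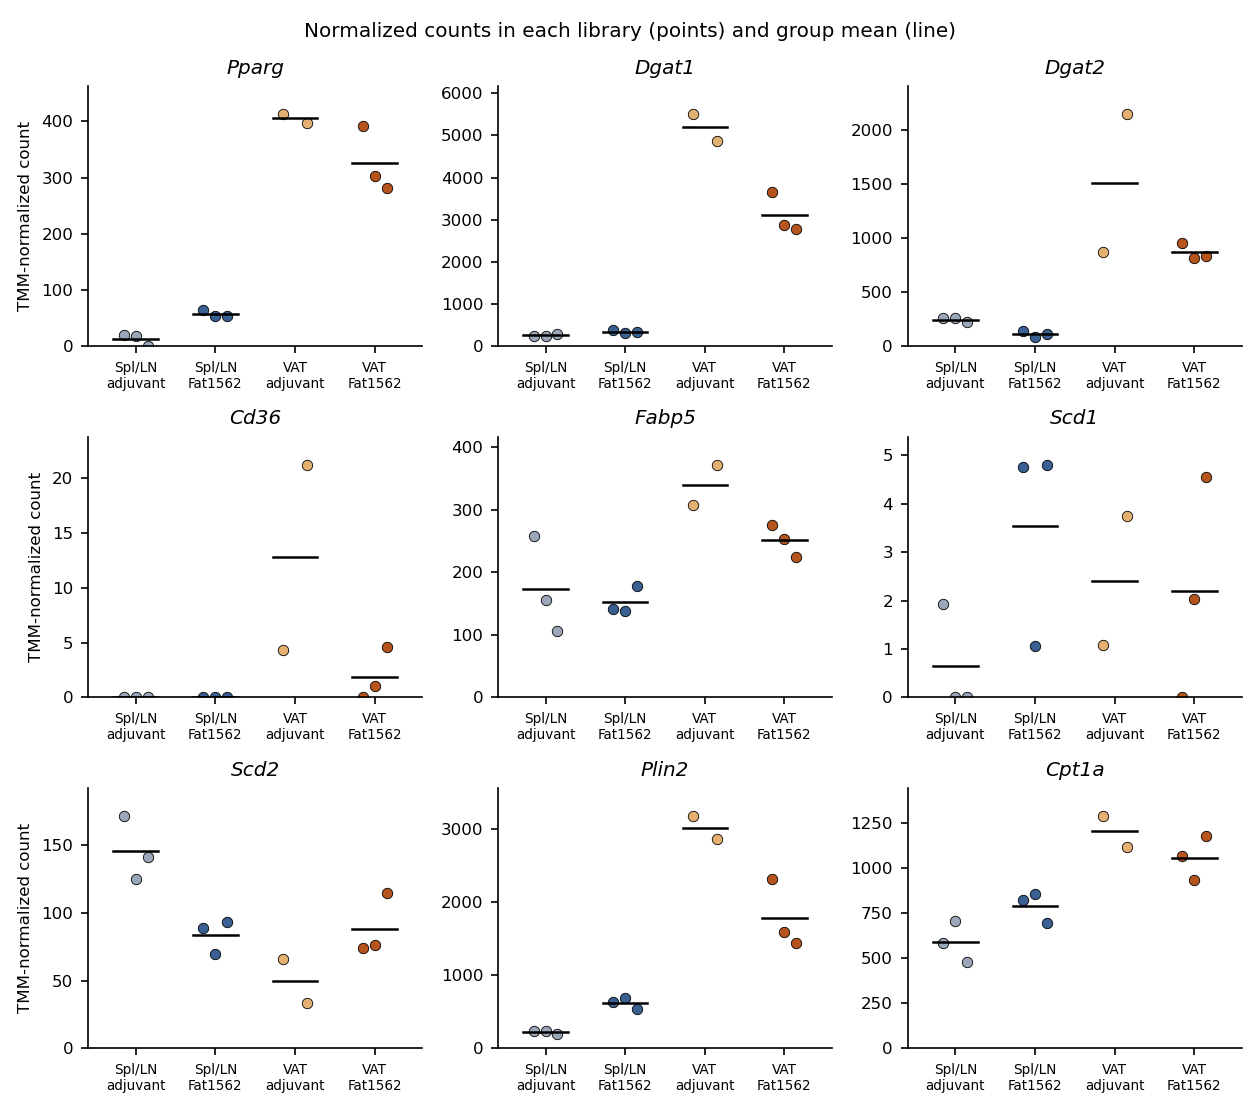
TMM-normalized counts of the 9 genes (y axis, a separate scale for each gene) in the 4 groups (x axis; adjuvant, adjuvant alone; Fat1562, adjuvant/Fat1562), with a point for each library and a line at the group mean. Pparg, Dgat1, Dgat2 and Plin2 were higher in every VAT library than in any Spl/LN library, whereas Cd36 and Scd1 rested on few counts.

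The second comparison set VAT against Spl/LN after adjuvant/Fat1562. The storage genes were again higher in VAT, with smaller gaps for Pparg, Dgat1 and Plin2. Of the 8 genes, 5 rose (Pparg, Dgat1, Dgat2, Plin2 and Cpt1a) and 0 fell, where 8.26% of all tested genes were called higher and 6.73% lower (edgeR's quasi-likelihood test). None was lower at an unadjusted p under 0.05 or by DESeq2 or limma either. The median log2 fold change without Cd36 was 1.53, beside -0.01 over all tested genes.

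Pparg had 392, 303 and 282 normalized counts in VAT and 64.8, 53.4 and 53.6 in Spl/LN, a log2 fold change of 2.503 ± 0.32 (adjusted p = 3.07e-05, edgeR). Dgat1 had 3657, 2887 and 2781 in VAT against 382, 327 and 332 in Spl/LN (3.16 ± 0.12, adjusted p = 1.29e-11). Dgat2 had 957, 818 and 837 in VAT against 146, 90.8 and 112 in Spl/LN (2.90 ± 0.25, adjusted p = 3.36e-07). All VAT libraries were far above all Spl/LN libraries in each of these genes.

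Plin2 had 2319, 1597 and 1447 normalized counts in VAT and 630, 688 and 535 in Spl/LN (log2 fold change 1.53 ± 0.15, adjusted p = 1.29e-06, edgeR). Cpt1a had 1063, 929 and 1173 in VAT and 822, 853 and 693 in Spl/LN (0.42 ± 0.14, adjusted p = 0.0454). Here the groups were close without overlapping, and the Cpt1a call was lost without any 1 of 5 of the 6 libraries, the second VAT library being the exception, and under quantile normalization.

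Fabp5 had 275, 253 and 225 normalized counts in VAT and 141, 138 and 179 in Spl/LN. These did not overlap either, but the log2 fold change of 0.71 (95% interval 0.20 to 1.23) did not pass the test (adjusted p = 0.0574, edgeR). Scd2 had 74.2, 76.3 and 115 in VAT and 88.7, 69.5 and 93.7 in Spl/LN, overlapping groups with a log2 difference of 0.08 (95% interval -0.50 to 0.65, adjusted p = 0.899). Cd36 had raw counts of 0, 1 and 5 in VAT and 0 in each Spl/LN library (adjusted p = 0.214), too few for a difference to be detectable at this depth.

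The third comparison asked what Fat1562 changed among VAT cells. Dgat1 and Plin2 fell, and none of the 8 genes rose, where 4.32% of all tested genes were called higher and 3.97% lower. By edgeR 1 gene, Scd2, was higher at an unadjusted p under 0.05, and none was called higher by DESeq2 or limma. The median log2 fold change without Cd36 was -0.43, beside 0.01 over all tested genes. Dgat1 went from 5510 and 4872 normalized counts to 3657, 2887 and 2781, a drop by 0.74 ± 0.12 on the log2 scale (adjusted p = 0.000715, edgeR). Plin2 went from 3178 and 2857 to 2319, 1597 and 1447, a log2 fold change of -0.76 ± 0.16 (adjusted p = 0.00609). In neither gene did the groups overlap, and the Plin2 call was lost without the first library with adjuvant alone (adjusted p = 0.0778).

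Pparg did not pass the test in VAT. Its means were 326 ± 58.6 (SD, n = 3) with Fat1562 and 406 ± 10.9 (SD, n = 2) without, a log2 fold change of -0.32 with a 95% interval of -0.998 to 0.361 (adjusted p = 0.638, edgeR). All 3 libraries with Fat1562 lay below both with adjuvant alone, the closest being 392 and 398. Dgat2 likewise was not called, at 1514 ± 901 and 871 ± 75.6 (log2 fold change -0.80, 95% interval -1.32 to -0.28, adjusted p = 0.0565), and here the second library with adjuvant alone set the size, the log2 fold change being -0.01 without it and -1.30 without the first. The other genes had log2 fold changes of -0.43 for Fabp5 (95% interval -0.99 to 0.12), 0.82 for Scd2 (0.135 to 1.4997) and -0.19 for Cpt1a (-0.50 to 0.13), with adjusted p of 0.381, 0.144 and 0.535. Cd36 had raw counts of 4 and 17 without Fat1562 and 0, 1 and 5 with it, a log2 fold change of -2.62 (-5.31 to 0.07, adjusted p = 0.252).

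In Spl/LN cells, the fourth comparison, Fat1562 was accompanied by higher Pparg and Plin2 and by lower Dgat2. These were the 2 genes called higher and the 1 called lower of the 8, where 2.58% of all tested genes were called higher and 1.40% lower. The median log2 fold change without Cd36 was 0.39, beside 0.00 over all tested genes. Pparg went from 20.3, 18.7 and 0.913 normalized counts to 64.8, 53.4 and 53.6, so that every library with Fat1562 exceeded every library without. The log2 fold change was 2.12 ± 0.42 (adjusted p = 0.00743, edgeR), and it did not pass in a fit of these 6 libraries alone (adjusted p = 0.0860). Without the third library, the low one, with adjuvant alone it was 1.55 and still called. Plin2 went from 240.2, 240.6 and 199 to 630, 688 and 535, a rise of 1.45 ± 0.16 on the log2 scale (adjusted p = 5.02e-05).

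Dgat2 moved the other way in Spl/LN, from 258.5, 258.3 and 224 normalized counts to 146, 90.8 and 112, a log2 fold change of -1.08 ± 0.26 (adjusted p = 0.0246, edgeR). The groups did not overlap, but the call was lost in 5 of 14 alternatives, namely quantile normalization and leaving out the first or second library with adjuvant alone or the second or the third with Fat1562. Dgat1, with 249, 251 and 296 against 382, 327 and 332, also separated the groups, upward, without passing (log2 fold change 0.39, 95% interval 0.13 to 0.65, adjusted p = 0.0917). Cpt1a was at 0.42 (0.13 to 0.71, adjusted p = 0.102), Scd2 at -0.80 (-1.36 to -0.23, adjusted p = 0.112) and Fabp5 at -0.18 (-0.70 to 0.34, adjusted p = 0.758). Cd36 was at 0 in all 6 libraries.

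**Figure D2:**
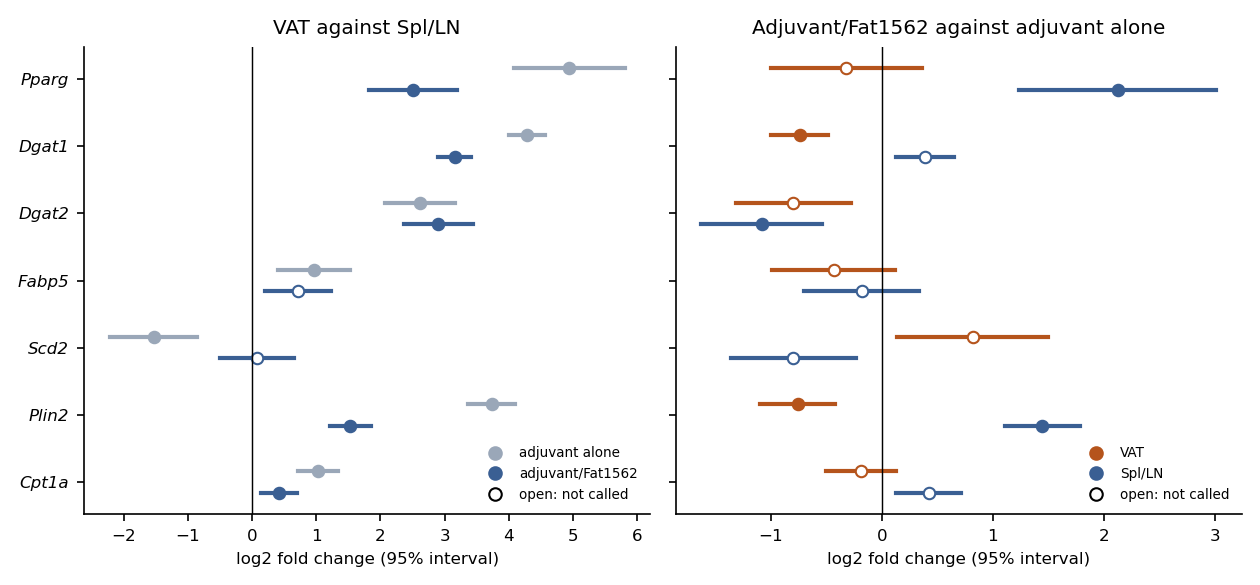
Log2 fold changes with 95% intervals (x axis) for 7 genes (y axis), VAT against Spl/LN on the left and adjuvant/Fat1562 against adjuvant alone on the right, filled where called at an adjusted p under 0.05. Cd36, at 0 in Spl/LN, and Scd1, untested, are left out. For Pparg and Plin2 the Spl/LN points on the right lie at 2.12 and 1.45, and the VAT points at -0.32 and -0.76.

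Whether Fat1562 acted alike in the tissues was tested as an interaction. The change in VAT minus the change in Spl/LN was called below 0 for Pparg, Dgat1 and Plin2 and above 0 for Scd2, 3 and 1 of the 8 genes, where 2.02% and 1.70% of all tested genes were called. The median without Cd36 was -0.61, beside 0.01 over all tested genes. For Plin2 the difference was -2.20 ± 0.23 on the log2 scale (adjusted p = 3.61e-05, edgeR), for Dgat1 -1.13 ± 0.17 (adjusted p = 0.00112) and for Pparg -2.44 ± 0.53 (adjusted p = 0.0144). Seen from the levels, Spl/LN cells held 3.28% of the VAT level of Pparg with adjuvant alone and 17.6% with Fat1562, and for Plin2 these shares were 7.51% and 34.6%. The Pparg difference did not pass under DESeq2 or without the first VAT library with adjuvant alone, where the highest adjusted p was 0.0598.

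Dgat1 fell in VAT like Plin2, whereas in Spl/LN it rose less than Plin2 and was not called. Its Spl/LN level went from 5.11% to 11.2% of the VAT level. This share takes in the fall of the VAT mean from 5191 to 3108 normalized counts, beside Spl/LN means of 265 and 347. Scd2 had an interaction of 1.61 ± 0.42 (adjusted p = 0.0407, edgeR), its Spl/LN level being 293% of the VAT level with adjuvant alone and 94.9% with Fat1562, and this call was lost in 8 of 18 alternatives. For Dgat2 (0.28 ± 0.36, adjusted p = 0.766) and Fabp5 (-0.25 ± 0.36, adjusted p = 0.799) the effect of Fat1562 was not shown to differ between tissues, and for Cpt1a the difference was -0.61 ± 0.20 (adjusted p = 0.120).

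To compare genes with each other, normalized counts were expressed as CPM per kilobase of annotated exon. In VAT cells with adjuvant alone Dgat1 led with a mean level of 318, followed by Plin2 (161), Dgat2 (92.0), Cpt1a (29.4), Pparg (25.7), Fabp5 (17.8), Scd2 (1.71), Cd36 (0.667) and Scd1, and no library of a gene reached down to the range of the next. The order was the same with Fat1562 down to Scd2, at 191 for Dgat1, 95.4 for Plin2 and 52.9 for Dgat2, and there Cpt1a (25.9) and Pparg (20.7) overlapped in their libraries. In Spl/LN cells with adjuvant alone Dgat1 (16.3), Dgat2 (15.0), Cpt1a (14.5), Plin2 (12.1), Fabp5 (9.10) and Scd2 (5.01) formed a group in which each neighbour overlapped the next, while Pparg was at 0.844. With Fat1562 Plin2 (33.0) stood first in Spl/LN, above Dgat1 (21.3) and Cpt1a (19.4), which overlapped, and Pparg reached 3.64.

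**Figure D3:**
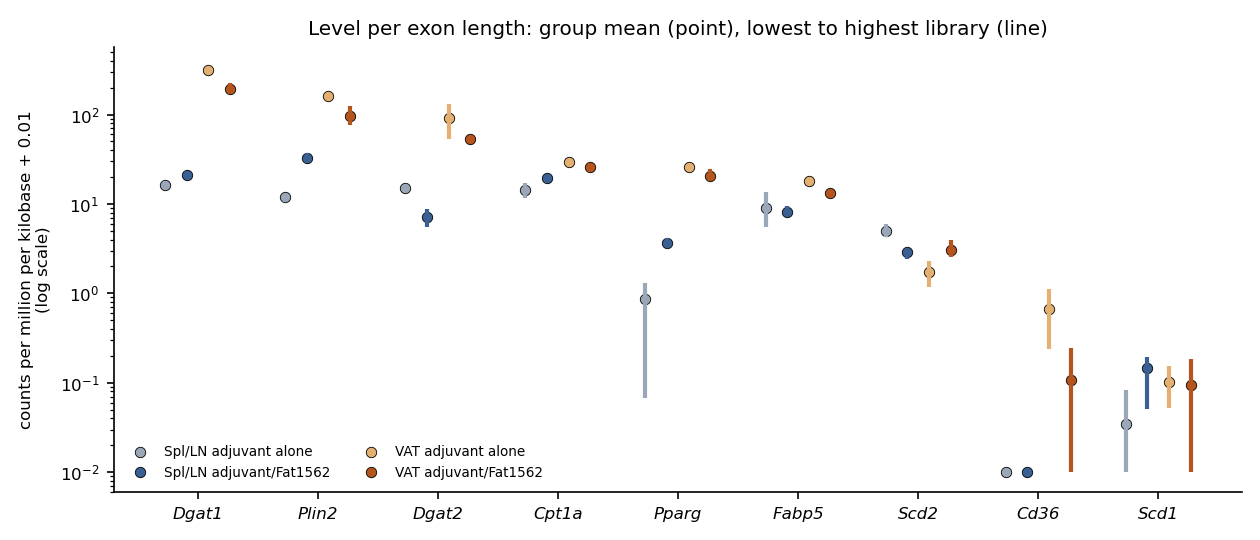
Levels of the 9 genes in CPM per kilobase of exon, plus 0.01, on a log axis, with the group mean as a point and the range of libraries as a line, for the 4 groups. Dgat1, Plin2 and Dgat2 lead in VAT, with Dgat1 at 318 in adjuvant alone, and Pparg runs from 0.844 in Spl/LN with adjuvant alone to 25.7 in VAT with adjuvant alone.

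The other PPAR and RXR receptors and their coregulators were considered next, of which 13 were tested. Between the tissues, 4 were higher in VAT and 1 lower with adjuvant alone, where 9.09% of all tested genes were called higher and 7.17% lower. With adjuvant/Fat1562 1 rose and 1 fell, where the shares were 8.26% and 6.73%. Their median log2 fold changes were 0.13 and 0.06. Rxra, an RXR partner of PPARγ, ran opposite to Pparg between the tissues and upon Fat1562 in Spl/LN. It had 105 and 120 normalized counts in VAT and 204, 267 and 355 in Spl/LN with adjuvant alone, a log2 fold change of -1.29 ± 0.25 (adjusted p = 0.00147, edgeR), and it also fell in Spl/LN upon Fat1562, to 143, 139 and 172 (log2 fold change -0.86 ± 0.21, adjusted p = 0.0295). The latter call was lost without any 1 of 5 of the 6 Spl/LN libraries, all but the first with adjuvant alone. In VAT upon Fat1562 Rxra went from 105 and 120 normalized counts to 65.2, 60.0 and 83.9. That was downward like Pparg in VAT, and neither was called there by edgeR.

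Nrip1, a corepressor of nuclear receptors with a known role in fat metabolism, was higher in VAT by 1.54 ± 0.26 on the log2 scale with adjuvant alone (adjusted p = 0.000382, edgeR) and by 1.30 ± 0.24 with adjuvant/Fat1562 (adjusted p = 0.000994). The coactivator gene Ncoa3 (0.79) and the corepressor gene Ncor1 (0.50) rose in VAT with adjuvant alone. None of the 13 was called by edgeR for Fat1562 in VAT (0 higher and 3 lower at an unadjusted p under 0.05, 1 called lower by DESeq2 and 0 by limma), and Rxra was the only one in Spl/LN. The shares of all tested genes called higher and lower were 4.32% and 3.97% in VAT and 2.58% and 1.40% in Spl/LN.

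Of 16 triglyceride synthesis genes, 15 were tested, and 6 were called higher and 2 lower in VAT with adjuvant alone, where 9.09% of all tested genes were called higher and 7.17% lower. Besides Dgat1 and Dgat2, these were Gpat3 (log2 fold change 1.95 ± 0.62, adjusted p = 0.0416, edgeR), which starts glycerolipid synthesis, the acyltransferases Agpat4 (0.71) and Agpat5 (0.61), and Mogat2. Mogat2, a monoacylglycerol acyltransferase, had raw counts of 19 and 9 in VAT and 0 in all Spl/LN libraries, at least 5.45-fold higher; it passed the filter only through the VAT groups, where it is high. Gpam, the mitochondrial enzyme of the same first step as Gpat3, fell by 1.71 ± 0.52 (adjusted p = 0.0314, edgeR), with raw counts of 10 and 13 in VAT and 50, 31 and 57 in Spl/LN. Gpat2 was at 0 in VAT, at least 3.72-fold lower. The calls of Gpat3, Agpat4, Agpat5, Gpam and Gpat2 were each lost on leaving out at least 1 library. The called genes of the list split in direction, those lower being among the calls so lost, and its median log2 fold change was 0.09.

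After Fat1562, 3 of these 15 genes rose and 1 fell in VAT against Spl/LN, where 8.26% of all tested genes were called higher and 6.73% lower, with a median of -0.13. The 1 that fell was Agpat3 (log2 fold change -0.83 ± 0.13, adjusted p = 0.000186, edgeR), which also rose in Spl/LN upon Fat1562 by 0.77 ± 0.13 (adjusted p = 0.0018). In Spl/LN upon Fat1562 the 3 called higher were Agpat3, Agpat4 and Mogat2, the last from 0 to raw counts of 3, 7 and 7 (adjusted p = 0.0443, lost in 9 of 12 alternatives), and the 1 called lower was Dgat2. In VAT upon Fat1562 Gpat2 was called higher and Dgat1 lower. Of all tested genes, 2.58% were called higher and 1.40% lower upon Fat1562 in Spl/LN, and 4.32% and 3.97% in VAT.

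The droplet list held 19 genes, 11 of them tested. Hilpda, which encodes a small droplet protein that inhibits lipolysis, rose with Plin2. It had 4494 and 3309 normalized counts in VAT and 157, 170 and 29.2 in Spl/LN with adjuvant alone (log2 fold change 5.05 ± 0.38, adjusted p = 3.84e-08, edgeR), and 3020, 2270 and 1604 against 151, 153 and 144 with adjuvant/Fat1562 (3.94 ± 0.35, adjusted p = 4.25e-07). Its Spl/LN levels with Fat1562 lay within the range of those without, unlike Plin2, and the third Spl/LN library with adjuvant alone was low in Hilpda as it was in Pparg. Plin3, another droplet coat gene, fell in VAT with adjuvant alone (-0.66) and Lipa, the lysosomal acid lipase, with adjuvant/Fat1562 (-0.46). The medians of the list were 0.02 and -0.21.

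Of 24 genes of fatty acid oxidation, 20 were tested. In VAT 6 rose with adjuvant alone, where 9.09% of all tested genes were called higher and 7.17% lower, and 3 with adjuvant/Fat1562, where the shares were 8.26% and 6.73%. By edgeR 0 fell in either, also at an unadjusted p under 0.05 and by DESeq2 and limma. The medians were 0.18 and 0.17, with 14 and 15 of the 20 above 0. After Cpt1a (1.03) came the carnitine carrier Slc25a20 (0.73), the electron transfer genes Etfb (0.68) and Etfdh (0.50) and the acyl-CoA dehydrogenases Acadl (0.56) and Acadvl (0.55), as log2 fold changes with adjuvant alone. Etfb (0.58), Cpt1a (0.42) and Acadvl (0.38) were those called with adjuvant/Fat1562. Upon Fat1562 Acadl rose in Spl/LN (0.52), and 0 of the 20 were called in VAT by edgeR, DESeq2 or limma (1 at an unadjusted p under 0.05, by edgeR). The shares of all tested genes called higher and lower upon Fat1562 were 2.58% and 1.40% in Spl/LN and 4.32% and 3.97% in VAT.

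In the uptake list 10 of 17 genes were tested. With Cd36, which passed the filter as described above, 3 were called higher in VAT with adjuvant alone and 1 with adjuvant/Fat1562, where 9.09% and 8.26% of all tested genes were called higher. Fabp5 and Acsl4 (0.89), an acyl-CoA synthetase that prefers polyunsaturated fatty acids, rose in VAT with adjuvant alone. Acsl4 alone (0.72) rose with adjuvant/Fat1562, Dbi, an acyl-CoA binding protein, rose by 0.69 in VAT upon Fat1562, and none was called by edgeR, DESeq2 or limma upon Fat1562 in Spl/LN (3 at an unadjusted p under 0.05). In the list of synthesis, elongation and desaturation 13 of 23 were tested, and Elovl6 rose in VAT with adjuvant alone (1.29 ± 0.27, adjusted p = 0.00248, edgeR) while Scd2 fell. With adjuvant/Fat1562 Elovl1 fell (-0.49). Elovl4 was at 0 in those Spl/LN libraries and at least 5.71-fold higher in VAT, but passed the filter only through the VAT groups. No gene of that list was called by edgeR, DESeq2 or limma upon Fat1562 in either tissue (3 in each at an unadjusted p under 0.05). Over all tested genes, the shares called higher and lower upon Fat1562 were 4.32% and 3.97% in VAT and 2.58% and 1.40% in Spl/LN.

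**Figure D4:**
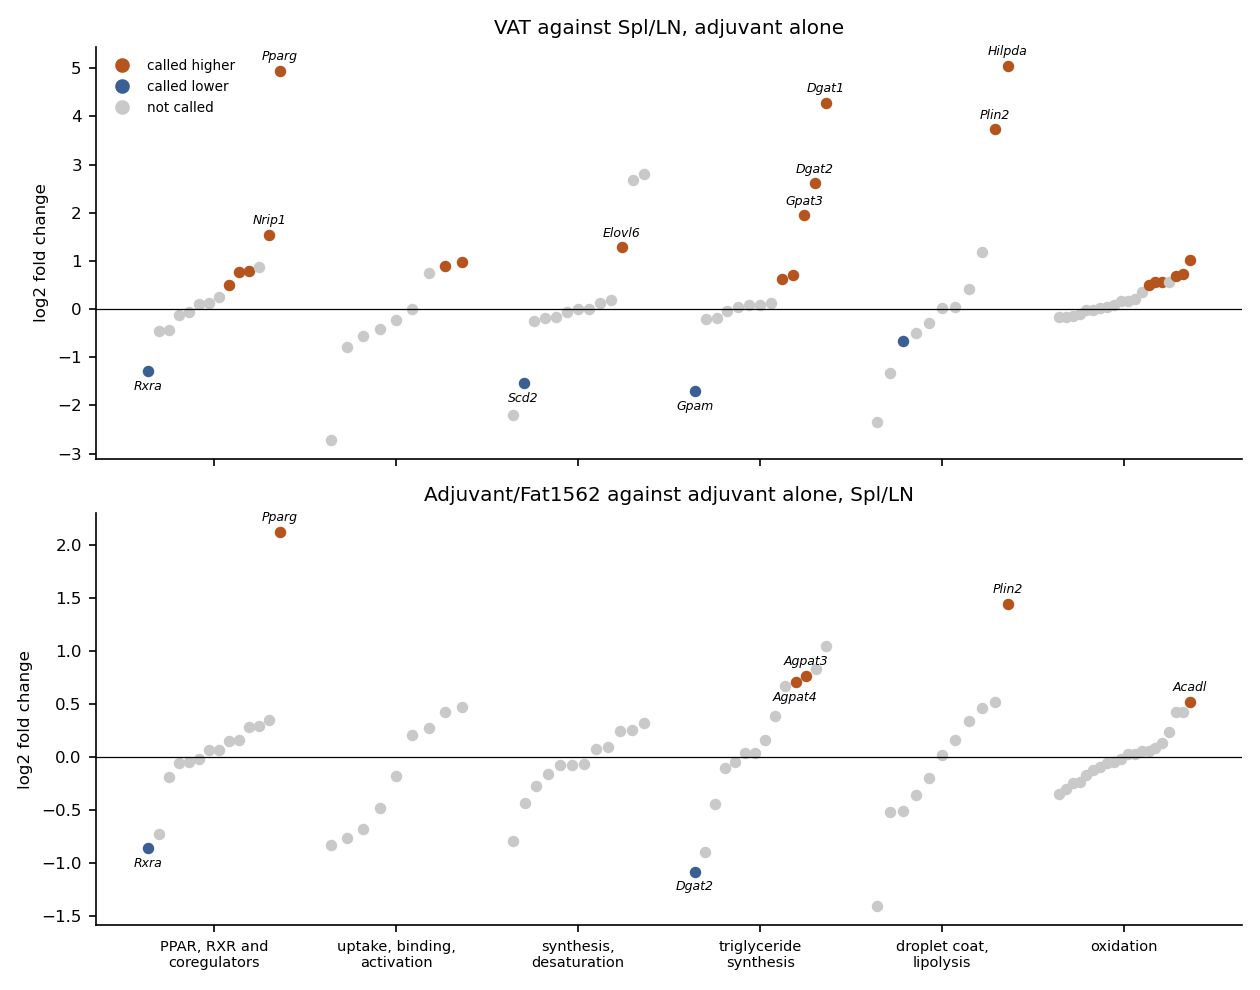
Log2 fold changes (y axis) of the tested genes of 6 lists (x axis, sorted within each list), for VAT against Spl/LN with adjuvant alone (top) and for Fat1562 in Spl/LN (bottom), colored by call. Genes at 0 in all libraries of a group compared are left out, and names are printed for called genes, in the top panel only beyond 1.2 in size. Pparg, Dgat1, Dgat2, Plin2 and Hilpda stand above the rest of their lists in the top panel, and Pparg and Plin2 in the bottom panel.

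Beyond the 9 genes and those over the filter only where high, 19 listed genes differed between the tissues with adjuvant alone, and 6 of them (Hilpda, Ncoa3, Ncor1, Nrip1, Rxra and Slc25a20) passed in every alternative that could test them, while the other 13 were lost on leaving out at least 1 library. With adjuvant/Fat1562 5 of 10 held (Agpat3, Elovl1, Hilpda, Nrip1 and Rxra), in Spl/LN upon Fat1562 1 of 5 (Agpat3), and in VAT upon Fat1562 0 of 2 (Dbi and Gpat2), the rest again being lost on leaving out a library. Between the tissues, 9.09% of all tested genes were called higher and 7.17% lower with adjuvant alone, and 8.26% and 6.73% with adjuvant/Fat1562. Upon Fat1562 these shares were 2.58% and 1.40% in Spl/LN and 4.32% and 3.97% in VAT. Whether the listed genes exceeded these shares was not tested.

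Across all 11 libraries, the genes whose log2 levels followed Pparg most closely were Tmem170b (Pearson r = 0.980), Lactb (0.974), Fhl2 (0.974), Itgb3 (0.973) and Sept8 (0.972). These points share 4 groups of 2 tissues and the single low Pparg library, so the values are descriptions. The order rested on the pseudocount of 1, since with 10 the same genes ranked 46, 31, 66, 55 and 92 and another 5 led. Among the genes of lipid handling Cpt1a (0.944, rank 29) and Plin2 (0.935, rank 45) followed Pparg more closely, at a pseudocount of 1, than Dgat1 (0.851), Fabp5 (0.793), Dgat2 (0.670) and Cd36 (0.600), and Scd2 ran opposite (-0.688). With a pseudocount of 10 Plin2 came first (0.977, rank 8), before Cpt1a (0.947, rank 62) and Dgat1 (0.932). Within the 6 Spl/LN libraries the values were 0.897 for Cpt1a, 0.824 for Plin2, 0.440 for Dgat1 and -0.615 for Dgat2, at a pseudocount of 1. Within the 5 VAT libraries the order differed, with 0.971 for Plin2, 0.911 for Dgat1, 0.474 for Dgat2 and 0.398 for Cpt1a, and of the closest 5 genes Lactb (-0.553) and Sept8 (-0.190) were below 0 there.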

How the data were processed

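RNA from 1000 sorted Treg cells per library was made into Smart-seq2 libraries and sequenced in paired 38-base reads. The authors deposited raw read counts per gene for the 11 libraries; the submitters' processing notes name STAR 2.5.4, featureCounts and mm10, and the study's methods name Cuffquant. The annotation, strand setting and treatment of multiply mapped reads are not given in the sources used here, so sense and antisense reads cannot be told apart. Total counts per library set the precision, and intervals cover the fitted spread between libraries.

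A gene was tested (12932 of 52997) if its count, scaled to the average total, had a mean above 10 in any group, and the test was edgeR 4.0.16 (R 4.3.3) by quasi-likelihood, TMM normalization and a single fit of the 4 groups, two-sided, with Benjamini-Hochberg adjustment over all tested genes and calls at 0.05. The script was tested on simulated counts. A normalized count is the raw count after TMM scaling to a common size of library. Alternatives were no filter, a mean above 50, a coefficient of variation under 0.7, median-of-ratios scaling, quantile normalization with limma 3.58.1, DESeq2 1.42.0, only the groups compared, a replicate block and each library left out. The deviations of same-numbered libraries from their group means correlated at r -0.04 to 0.06, none over 0.1, so the numbers were not taken as pairs.

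The 9 genes, pathway lists and marker lists were chosen with earlier results of these data known. All 9 genes are named. The values of 1 listed gene are not reported here. Listed genes called in a comparison are named first, by size, as are the 5 genes most correlated with Pparg. Besides Treg, adipocyte, macrophage and dendritic cell markers, summed normalized counts in VAT and Spl/LN with adjuvant alone were 101 to 170 and 123 to 226 for 6 B cell markers, 247 to 317 and 463 to 534 for 6 endothelial markers, 13.0 to 16.2 and 18.3 to 34.4 for 6 fibroblast markers, and 174 to 195 and 107 to 139 for 6 CD8 T and NK cell markers. With adjuvant/Fat1562 they were, in the same order, 70.8 to 107 and 154 to 195, 428 to 612 and 500 to 581, 17.3 to 52.8 and 21.0 to 33.6, and 110 to 142 and 96.2 to 158.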

Additional observations from a re-analysis of the deposited data

Results flagged for a closer look

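The response to Fat1562 differed between VAT and Spl/LN cells, by the interaction term of edgeR's quasi-likelihood fit, for 4 genes. On the log2 scale the change in VAT minus the change in Spl/LN was -2.44 for Pparg, -2.20 for Plin2, -1.13 for Dgat1 and 1.61 for Scd2. Pparg was called in Spl/LN and not in VAT, Plin2 rose in Spl/LN and fell in VAT, Dgat1 fell in VAT and was not called in Spl/LN, and Scd2 was called in neither tissue.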

How the results depend on the processing

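Of 533 alternative values of the 8 tested genes, 481 kept direction and side of the threshold, 17 newly passed, 30 no longer passed and 5 changed sign, all 5 among differences that had not passed. Leaving out 1 library gave log2 fold changes of -0.44 to 0.23 for Fabp5 upon Fat1562 in Spl/LN (0.23 without the first library with adjuvant alone) and -0.16 to 0.19 for Scd2 in VAT against Spl/LN with adjuvant/Fat1562 (below 0 at -0.04 without the second Spl/LN and -0.16 without the third VAT library). The same gave interactions of -0.66 to 0.0017 for Fabp5 and -0.22 to 1.08 for Dgat2 (-0.22 without the first VAT library with adjuvant alone). The genes called of the 9 were 5 to 8 in VAT against Spl/LN with adjuvant alone, 5 without the second VAT library. Over all genes, leaving out 1 library gave 1259 to 2114 calls in that comparison, 1289 to 1704 with adjuvant/Fat1562, 508 to 827 for Fat1562 in VAT, 190 to 487 for Fat1562 in Spl/LN and 240 to 575 for the interaction. For Fat1562 in Spl/LN, no filter gave 793 calls over all genes, 5 of them among the 9, DESeq2 also gave 793, against 515, and quantile normalization gave 292 higher and 241 lower, against 334 and 181. For the interaction DESeq2 gave 776 calls, against 481. With a replicate block the calls were 1804, 1861, 990, 515 and 435 in the order of the report, and 8, 5, 2, 3 and 4 of the 9 genes were called; the block cannot be taken as a pairing. Between tissues under the same immunization, all 5 same-numbered pairs correlated best with their own number (r 0.03 to 0.06). The same held between Spl/LN with adjuvant/Fat1562 and VAT with adjuvant alone (r 0.011 and 0.025), groups that cannot share mice. The match is thus at most a weak hint of pairing. By the longest transcript in place of all exons the order of the genes in VAT was kept, and in Spl/LN with adjuvant alone Cpt1a and Plin2 moved above Dgat2. The causes were not tested. Where a VAT library with adjuvant alone is left out, the lone library is assumed to vary like the other groups. The limits are 2 or 3 libraries a group, counts near 0 for Cd36 and Scd1, and 1 Pparg count in a Spl/LN library.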
